A study of Mus musculus with 16 samples.

Results

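The genes described here encode the actin, myosin and contractile machinery of 3T3-L1 cells, a clonal mouse fibroblast line used as a model of adipogenesis. They comprise 38 genes chosen by symbol, and 37 of them were measured by probes naming that gene alone, 163 of 38467 probes and 37 of 19640 genes. Actg1, the second cytoplasmic actin, was named by 1 probe, which also named other genes, and it has no value here. Treatment was with the synthetic glucocorticoid dexamethasone (dex) or with DMSO, its vehicle, for 36 or 2 h. The 4 groups were dex at 36 h, DMSO at 36 h, dex at 2 h and DMSO at 2 h, with 4 biological replicates each. The labels give no dex dose, cell density or differentiation agent for any group. Each array compared a sample in Cy5 with a pool of samples in Cy3, so a value is the log2 ratio of sample over pool and not a level. Base 2 was assumed because no source used here gives the base of the logarithm. If it were natural, each log2 difference would be larger by a constant factor.

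Actin monomers assemble into filaments, tropomyosins wind along them, and non-muscle and smooth muscle myosins pull on them. Cross-linkers bundle the filaments, and focal adhesion proteins such as vinculin and talin couple them to integrins and the matrix. Free actin monomer holds back MRTF, a coactivator of serum response factor (SRF). When filaments form, MRTF enters the nucleus and SRF switches on many actin and contractile genes through a DNA element called the CArG box. The same tension acts on YAP and TAZ, which work through TEAD factors. In preadipocytes the actin cytoskeleton is known to be remodelled as the cells round up into adipocytes.

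The array medians lay between -0.011 and 0.0083. The arrays at 2 h were noisier, with a residual SD over genes of 0.168 to 0.435, against 0.108 to 0.205 at 36 h. In the DMSO 2 h group, replicate 4 correlated at a mean r of -0.104 with its own group. Dex 36 h replicates 1 and 3 each correlated at r = -0.338 with DMSO 36 h replicate 2 across probes, and the direction was kept because the labels state the dyes. No scanner intensities were used, so signal over background is unknown, and the number of arrays limits the precision. In bulk RNA, fewer cells of a type and less RNA per cell cannot be told apart. Values are means over a gene's probes. A gene is said to have passed where its adjusted p was under 0.05 in limma, with Benjamini-Hochberg adjustment over the 19640 genes. Each difference carries the standard error (SE) of the fit, which uses 1 variance per gene over all 16 arrays.

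The first comparison asked which contractile genes responded to dex at 36 h. For dex effects, fell and rose mean lower or higher with dex than with DMSO at the same time. Tpm1, Acta2, Actg2, Flna, Vcl, Tpm4, Cnn2, Myh10 and Actb fell, and Ccn1 rose. These are 9 of 37 genes lower, against 3.88% of all genes, and 1 higher, against 5.28% of all genes. The median difference over the 37 genes was -0.19, against -0.0012 over all genes. Below 0 lay 28 of the 37 values, against 50.3% of all genes. For 19 genes all 4 dex arrays were below all 4 DMSO arrays, which held for 13.9% of all genes. The reverse held for 2 genes, Ccn1 and Actn1, and also for 13.9% of all genes. The 19 include genes such as Actc1 and Srf whose differences were small and did not pass.

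**Figure D1:**
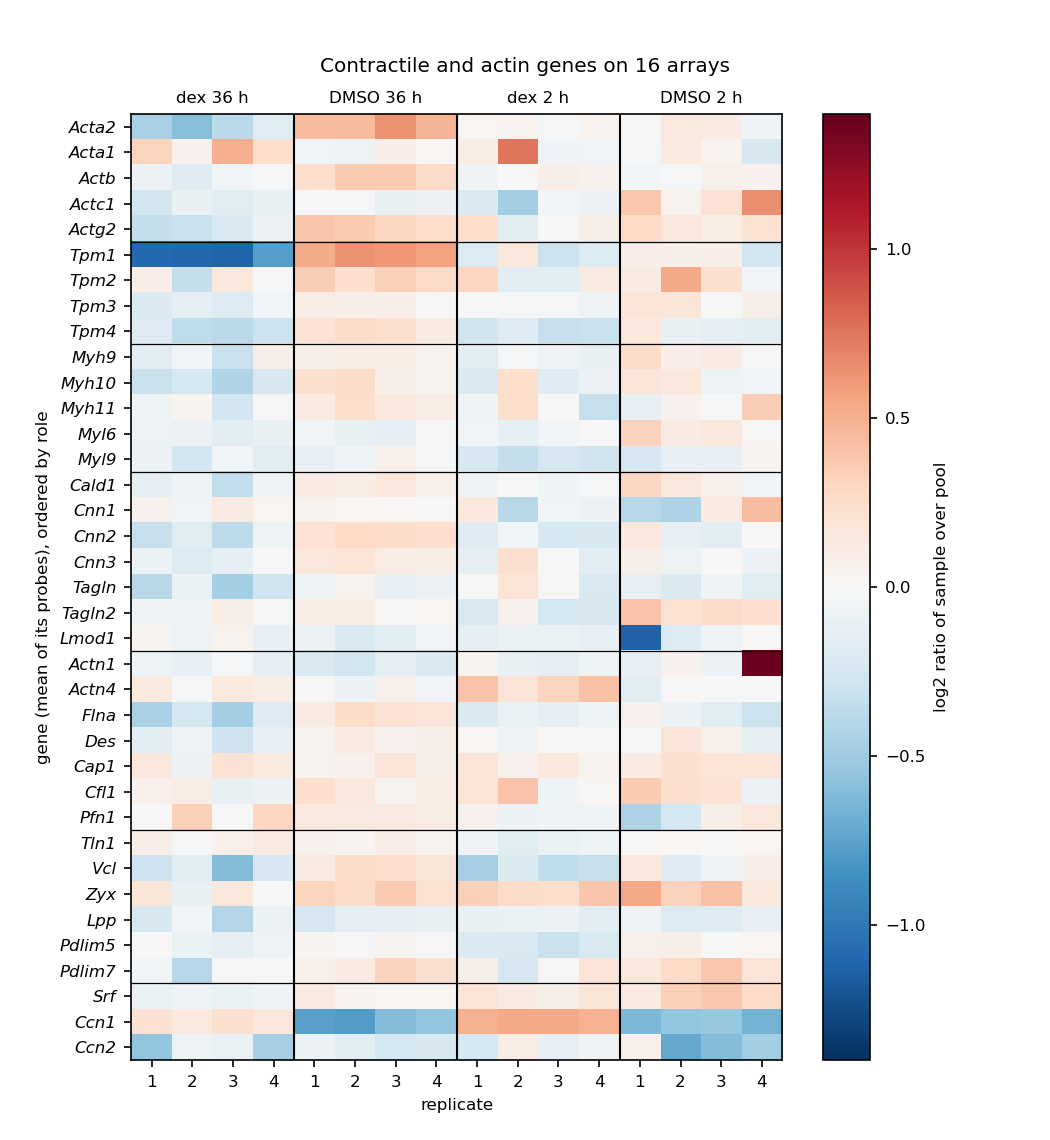
Log2 ratio of sample over pool (colour) of 37 genes (rows, by role) on 16 arrays (columns, 4 replicates in each of 4 groups). Within their rows Tpm1 and Acta2 are lowest in the dex 36 h columns and highest in the DMSO 36 h columns, while Ccn1 is above 0 on all dex arrays and below 0 on all DMSO arrays.

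The sequences just upstream of 5 genes that passed are shown because SRF and TEAD elements are the known links between filament state and these genes. RefSeq windows (GRCm38.p6) were matched for 33 of the 38 genes, with Actb, Actg2, Ccn2, Myh11 and Tagln not analysed here, and the 250 bases before a start are printed, with matches on either strand in capitals. Capitals mark the CArG box in Cnn2, the core letters GGAATG of the TEAD site in Acta2 and Tpm1, both in Vcl, and GGAATG on the opposite strand in Ccn1. The windows are chr19:34255374-34255623 (minus strand) for Acta2, chr9:67049214-67049463 (minus strand) for Tpm1 and chr14:20929148-20929397 (plus strand) for Vcl. Those of the other two are chr10:79988350-79988599 (plus strand) for Cnn2 and chr3:145649986-145650235 (minus strand) for Ccn1.
Acta2: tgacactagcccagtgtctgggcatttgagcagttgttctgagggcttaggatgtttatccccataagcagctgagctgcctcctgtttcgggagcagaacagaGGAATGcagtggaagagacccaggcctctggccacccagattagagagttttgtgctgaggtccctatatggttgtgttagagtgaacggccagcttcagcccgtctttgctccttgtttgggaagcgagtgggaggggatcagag
Tpm1: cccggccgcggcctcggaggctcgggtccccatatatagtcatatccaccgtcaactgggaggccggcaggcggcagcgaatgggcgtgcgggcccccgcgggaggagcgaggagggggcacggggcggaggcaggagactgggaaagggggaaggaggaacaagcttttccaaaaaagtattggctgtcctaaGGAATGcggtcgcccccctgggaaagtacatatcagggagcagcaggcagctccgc
Vcl: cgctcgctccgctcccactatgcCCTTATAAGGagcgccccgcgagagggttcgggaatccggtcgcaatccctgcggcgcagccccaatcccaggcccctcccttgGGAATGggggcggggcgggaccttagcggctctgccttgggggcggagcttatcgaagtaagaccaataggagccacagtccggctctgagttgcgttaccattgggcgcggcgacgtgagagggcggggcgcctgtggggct
Cnn2: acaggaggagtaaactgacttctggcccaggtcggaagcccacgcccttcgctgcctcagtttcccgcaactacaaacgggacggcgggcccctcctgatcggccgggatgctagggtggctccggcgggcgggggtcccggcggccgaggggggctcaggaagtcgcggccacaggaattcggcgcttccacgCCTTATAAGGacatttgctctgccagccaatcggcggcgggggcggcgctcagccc
Ccn1: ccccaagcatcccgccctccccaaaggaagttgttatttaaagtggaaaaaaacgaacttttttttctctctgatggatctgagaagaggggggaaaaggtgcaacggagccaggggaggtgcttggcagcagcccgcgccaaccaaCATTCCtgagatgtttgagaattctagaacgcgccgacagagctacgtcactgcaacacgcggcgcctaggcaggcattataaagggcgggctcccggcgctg

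The box in Vcl lies at bases -227 to -218 and that in Cnn2 at -56 to -47, counted from the start. GGAATG lies at -146 to -141 in Acta2, at -56 to -51 in Tpm1, at -143 to -138 in Vcl and at -103 to -98 in Ccn1. The CArG box was searched in its strict form, CC and GG around 6 bases that are each A or T. It was found in 8 of the 33 genes (Acta1, Actc1, Actg1, Cnn2, Myl6, Myl9, Srf and Vcl), against 1.47% of 32851 windows of the same length. With at most 1 base off, a form added after seeing the data, it was found in 15 of the 33 genes, Acta2, Tpm1 and Flna now included, against 18.6% of windows. GGAATG was found in 13 of the 33 genes, against 12.6% of windows. The 33 genes have 38 windows, and a gene counts if any of its windows matches. These counts per gene are thus not the same measure as the shares of windows. Of the 8 genes with a window that passed at 36 h, 6 held GGAATG and 2 the strict CArG box. The 6 include Ccn1, which rose, while the others fell. Of the 24 measured genes with a window that did not pass, 7 held GGAATG and 5 the strict CArG box. The palindromic glucocorticoid response element, AGAACA and TGTTCT with 3 bases between, was in none of the 33 genes and in 3 of the 32851 windows (0.00913%). Both strands were searched, and in Acta1 and Vcl, which hold both of the first 2 motifs, the matches do not overlap. A match of letters is a description and not evidence of binding.

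Among the actins, 3 of 5 measured genes fell at 36 h, against 3.88% of all genes. Acta2 encodes smooth muscle alpha-actin, the actin of stress fibres in contractile fibroblasts. Its 4 replicates gave -0.45, -0.60, -0.37 and -0.17 with dex, against 0.45, 0.44, 0.63 and 0.47 with DMSO. Every dex array lay below 0 and every DMSO array well above it. The difference was -0.90 ± 0.09 (1.86-fold lower, limma adjusted p = 4.87e-06), the 76th lowest of 19640 genes. Actg2, the enteric smooth muscle actin, gave -0.34, -0.31, -0.21 and -0.08 with dex, against 0.39, 0.36, 0.29 and 0.24 with DMSO. The groups did not overlap, and the difference was -0.56 ± 0.09 (1.47-fold lower, limma adjusted p = 0.000636). Actb, the cytoplasmic beta-actin that is often taken as a reference gene, gave -0.08, -0.18, -0.04 and -0.03 with dex, against 0.25, 0.37, 0.37 and 0.26 with DMSO. Again the groups stood apart, by less than for the smooth muscle actins, with a difference of -0.40 ± 0.06 (1.32-fold lower, limma adjusted p = 0.000789). The sarcomeric actins Acta1 and Actc1 did not pass, at 0.28 ± 0.15 and -0.11 ± 0.12. Actins are close in coding sequence, and whether a probe also reads a paralogue was not tested.

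Of the 4 tropomyosins, Tpm1 and Tpm4 fell, against 3.88% of all genes. Tpm1 encodes alpha-tropomyosin, which includes the stress fibre forms. It gave -1.09, -1.10, -1.12 and -0.77 with dex at 36 h, against 0.52, 0.63, 0.61 and 0.56 with DMSO. The gap between the groups was wider than the spread within either. The difference of -1.60 ± 0.11 (3.02-fold lower, limma adjusted p = 1.60e-07) was the 7th lowest of all genes. Tpm4, a cytoskeletal tropomyosin, gave -0.18, -0.36, -0.37 and -0.30 with dex, against 0.20, 0.26, 0.23 and 0.11 with DMSO. Its difference was -0.50 ± 0.08 (1.42-fold lower, limma adjusted p = 0.000502), with no overlap. Tpm2 (-0.32 ± 0.14) and Tpm3 (-0.21 ± 0.06) did not pass, at limma adjusted p = 0.167 and 0.0558, although all their dex arrays lay below all their DMSO arrays.

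Of 5 myosin genes, 1 fell, against 3.88% of all genes. Myh10 encodes the heavy chain of non-muscle myosin IIB. It gave -0.31, -0.25, -0.42 and -0.23 with dex at 36 h, against 0.22, 0.25, 0.08 and 0.04 with DMSO. The difference was -0.45 ± 0.10 (1.37-fold lower, limma adjusted p = 0.010), and it did not pass when the median of its 3 probes was used (-0.39, limma adjusted p = 0.0528). The other heavy chains did not pass: Myh9 of non-muscle myosin IIA was at -0.19 ± 0.08 and Myh11 of smooth muscle myosin at -0.23 ± 0.12. Myl9, the regulatory light chain, was at -0.11 ± 0.07 and Myl6, an essential light chain, at -0.03 ± 0.07.

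Of 7 regulators of the thin filament, 1 fell, against 3.88% of all genes. Cnn2, calponin 2 of non-muscle cells, gave -0.32, -0.17, -0.36 and -0.08 with dex at 36 h, against 0.20, 0.28, 0.26 and 0.23 with DMSO. No dex array reached the lowest DMSO array, and the difference was -0.48 ± 0.08 (1.39-fold lower, limma adjusted p = 0.00177). Values for caldesmon Cald1 (-0.25 ± 0.08), Cnn3 (-0.25 ± 0.08) and the smooth muscle marker Tagln (-0.25 ± 0.09) were alike in size and did not pass, at limma adjusted p = 0.0663, 0.0797 and 0.114. Cnn1, the smooth muscle calponin, was at 0.02 ± 0.16, the actin nucleator Lmod1 at 0.10 ± 0.18 and Tagln2 at -0.08 ± 0.08. Among the smooth muscle genes, Acta2 and Actg2 thus passed while Myh11, Cnn1, Tagln and Lmod1 did not, and differences between genes were not tested.

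Of 7 cross-linkers and filament turnover genes, 1 fell, against 3.88% of all genes. Flna encodes filamin A, which links filaments into networks and to the membrane. It gave -0.46, -0.25, -0.47 and -0.19 with dex at 36 h, against 0.12, 0.26, 0.20 and 0.18 with DMSO. The groups did not overlap, and the difference was -0.53 ± 0.09 (1.44-fold lower, limma adjusted p = 0.000946). The intermediate filament gene Des was at -0.24 ± 0.07 (limma adjusted p = 0.0565). The turnover genes Cfl1, Pfn1 and Cap1 were at -0.13 ± 0.11, 0.04 ± 0.12 and 0.00 ± 0.07, and none passed. Nor did the alpha-actinins Actn1 (0.12 ± 0.23) and Actn4 (0.10 ± 0.07).

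Of 6 adhesion and LIM domain genes, 1 fell, against 3.88% of all genes. Vcl encodes vinculin, which joins talin to actin at focal adhesions. It gave -0.29, -0.17, -0.61 and -0.24 with dex at 36 h, against 0.13, 0.26, 0.24 and 0.17 with DMSO. The highest dex array stayed below the lowest DMSO array, and the difference was -0.53 ± 0.10 (1.44-fold lower, limma adjusted p = 0.00319). Its partner talin, Tln1, was at 0.01 ± 0.06 over 57 probes. Zyx (zyxin), Pdlim7, Pdlim5 and Lpp were at -0.23 ± 0.09, -0.30 ± 0.11, -0.08 ± 0.06 and -0.04 ± 0.08, and none passed.

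The 3 remaining genes are Srf itself and the matricellular genes Ccn1 and Ccn2, which are widely used as readouts of YAP and SRF activity. Ccn1 was the 1 gene that rose. It gave 0.20, 0.14, 0.22 and 0.16 with dex at 36 h, against -0.76, -0.79, -0.61 and -0.55 with DMSO. Its difference was 0.86 ± 0.07 (1.81-fold higher, limma adjusted p = 4.55e-07), the 217th highest of all genes. Ccn2 (-0.11 ± 0.15, limma adjusted p = 0.805) and Srf (-0.13 ± 0.06, limma adjusted p = 0.257) did not pass.

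**Figure D2:**
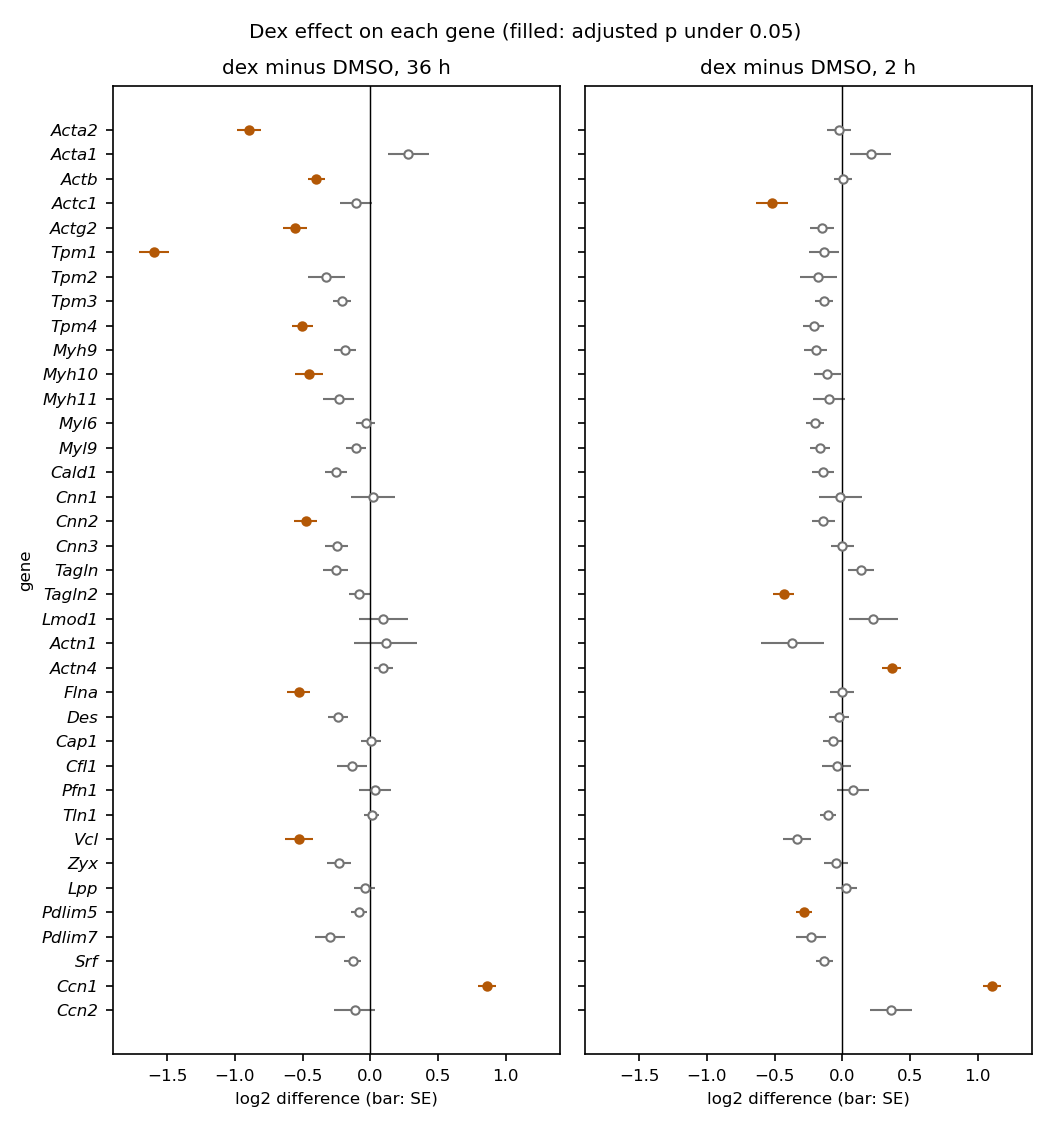
Log2 difference of dex over DMSO (points, with the SE as bars) of 37 genes at 36 h (left) and 2 h (right), with filled points for an adjusted p under 0.05. At 36 h 9 genes are filled below 0 and Ccn1 above it, while at 2 h the filled points are Ccn1 and Actn4 above 0 and Actc1, Tagln2 and Pdlim5 below it.

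At 2 h, 2 of 37 genes rose with dex, against 1.77% of all genes, and 3 fell, against 1.20% of all genes. The median difference was -0.11, against -0.0089 over all genes. Of the 37 values 28 lay below 0, against 52.5% of all genes. All 4 dex arrays were below all 4 DMSO arrays for 8 genes, against 3.13% of all genes, and above them for 2 genes, against 3.37%. Ccn1 had 0.50, 0.53, 0.53 and 0.48 with dex, against -0.63, -0.55, -0.53 and -0.66 with DMSO, which left the groups far apart. Its difference was 1.10 ± 0.07 (2.15-fold higher, limma adjusted p = 8.49e-08), the 75th highest of all genes. Actn4, alpha-actinin 4 of non-muscle cells, had 0.40, 0.18, 0.31 and 0.41 with dex, against -0.15, 0.01, -0.01 and -0.01 with DMSO. The groups did not overlap, and the difference was 0.36 ± 0.07 (1.29-fold higher, limma adjusted p = 0.00872).

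The 3 genes that fell at 2 h were not among those that fell at 36 h. Tagln2, transgelin 2, had -0.21, 0.06, -0.25 and -0.22 with dex, against 0.40, 0.21, 0.26 and 0.23 with DMSO. Its difference was -0.43 ± 0.08 (1.35-fold lower, limma adjusted p = 0.00353), with dex replicate 2 nearest to the DMSO arrays. Actc1, cardiac alpha-actin, had -0.20, -0.48, -0.04 and -0.08 with dex, against 0.38, 0.05, 0.20 and 0.65 with DMSO, and both groups were wide. The difference of -0.52 ± 0.12 (limma adjusted p = 0.0204) did not pass without dex 2 h replicate 1 (-0.52, 0.054) or without replicate 2 (-0.43, 0.0649). Nor did it pass with array weights or by log-odds over 0. Pdlim5, a LIM protein of Z-discs and stress fibres, had -0.20, -0.21, -0.31 and -0.21 with dex, against 0.07, 0.09, 0.00 and 0.03 with DMSO. Its difference of -0.28 ± 0.06 (limma adjusted p = 0.0113) did not pass without dex 2 h replicate 3 (-0.26, 0.0558). When the fit held only the 2 h arrays, Ccn1 alone passed, and Actn4, Tagln2, Pdlim5 and Actc1 had limma adjusted p = 0.148, 0.109, 0.199 and 0.285. Tpm1 (-0.14 ± 0.11), Acta2 (-0.03 ± 0.09), Actb (0.01 ± 0.06) and Flna (-0.00 ± 0.09) had small values at 2 h, and Vcl had -0.34 ± 0.10 (limma adjusted p = 0.113).

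**Figure D3:**
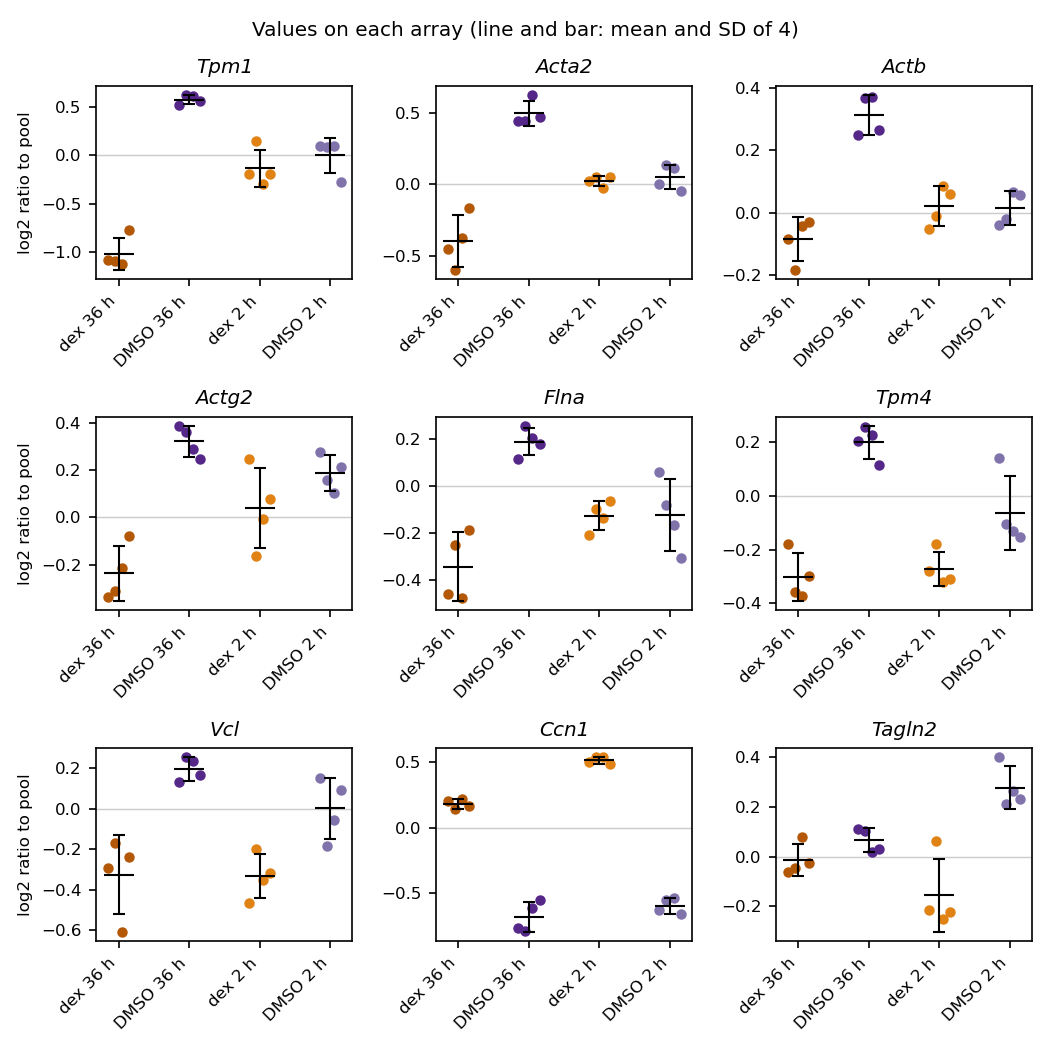
Log2 ratio to pool of 9 genes on each array (points), with the mean and SD of 4 replicates (line and bars), for dex 36 h, DMSO 36 h, dex 2 h and DMSO 2 h. Tpm1, Acta2, Actb and Flna are separated by dex at 36 h with overlapping groups at 2 h, while Ccn1 is separated at both times.

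The dex effect differed between 36 and 2 h, by a test of the difference itself, for 4 of 37 genes, all more negative at 36 h, against 1.10% of all genes. The difference was -1.46 ± 0.16 for Tpm1 (limma adjusted p = 7.40e-05) and -0.87 ± 0.12 for Acta2 (limma adjusted p = 0.000720). It was -0.53 ± 0.12 for Flna and -0.40 ± 0.09 for Actb (limma adjusted p = 0.0298 and 0.0237). The calls of Flna and Actb were both lost without dex 2 h replicate 3 or 4, dex 36 h replicate 1, or DMSO 36 h replicate 2 or 3, and that of Flna also without dex 2 h replicate 2, DMSO 2 h replicate 3, dex 36 h replicate 3 or DMSO 36 h replicate 4. As a mean of its probes, Ccn1 had effects at both times that did not differ at this precision (-0.25 ± 0.09, limma adjusted p = 0.232). In a separate limma fit per probe, the 2 Ccn1 probes were discordant, at -0.56, which passed, and 0.07, which did not. In the vehicle from 2 to 36 h these probes changed by -0.43, which passed, and by 0.26, which did not. For Vcl, Tpm4, Cnn2, Myh10 and Actg2, which fell at 36 h and did not pass at 2 h, the difference between the effects did not pass (limma adjusted p = 0.601, 0.220, 0.198, 0.288 and 0.115). For Actc1, Tagln2 and Pdlim5 it was 0.41 ± 0.17, 0.35 ± 0.11 and 0.20 ± 0.08, and did not pass either.

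Some of these genes differed between the vehicle groups. Between DMSO at 36 h and DMSO at 2 h, 3 of 37 genes were higher at 36 h, against 0.224% of all genes. The vehicle means of Tpm1 were 0.58 ± 0.05 at 36 h and -0.00 ± 0.18 at 2 h (SD, n = 4 arrays each). Those of Acta2 were 0.50 ± 0.09 at 36 h and 0.05 ± 0.09 at 2 h, and those of Actb 0.31 ± 0.07 at 36 h and 0.02 ± 0.05 at 2 h. The rises were 0.58 ± 0.11, 0.45 ± 0.09 and 0.30 ± 0.06 (SE, limma adjusted p = 0.0204, 0.0193 and 0.0367). All 3 calls were lost when any 1 of the DMSO 36 h arrays was left out, and when the fit held only these 8 arrays.

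Under dex, 3 of 37 genes were lower at 36 h than at 2 h, against 1.11% of all genes. Tpm1 averaged -1.02 ± 0.17 at 36 h and -0.14 ± 0.20 at 2 h (SD), a change of -0.88 ± 0.11 (SE, limma adjusted p = 0.000820). Acta2 averaged -0.40 ± 0.18 at 36 h and 0.02 ± 0.04 at 2 h, a change of -0.42 ± 0.09 (limma adjusted p = 0.0214). Ccn1 averaged 0.18 ± 0.04 at 36 h and 0.51 ± 0.03 at 2 h, a change of -0.33 ± 0.07 (limma adjusted p = 0.0199). The calls of Acta2 and Ccn1 were both lost without dex 2 h replicate 3 or dex 36 h replicate 1, and that of Acta2 also without dex 2 h replicate 1, 2 or 4 or dex 36 h replicate 3. These changes over time share their arrays with the dex effects and are not separate evidence for them. Actb, which rose in the vehicle, changed by -0.11 ± 0.06 under dex and did not pass there (limma adjusted p = 0.518). Vcl, Tpm4 and Cnn2 changed by 0.01, -0.03 and -0.06 under dex and by 0.20, 0.26 and 0.27 in the vehicle. Actg2, Flna and Myh10 changed by -0.27, -0.22 and -0.25 under dex and by 0.13, 0.31 and 0.09 in the vehicle. None of these changes over time in Vcl, Tpm4, Cnn2, Actg2, Flna and Myh10 passed.

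Probes of one gene differed. In a separate limma fit per probe over 38467 probes, 45 of the 163 probes were lower at 36 h, against 3.74% of all probes, and 3 were higher, against 5.09%. At 2 h 5 were lower, against 0.793% of all probes, and 4 higher, against 1.43%. Of the 45, 24 read Actb. The 4 Acta2 probes gave differences of -1.95, -0.72, -0.70 and -0.22 at 36 h, and the last, which did not pass, is annotated with no RefSeq mRNA. From 2 to 36 h the Acta2 probes changed by -1.17 to -0.05 under dex and by 0.19 to 0.77 in the vehicle. In each of these 1 of the 4 passed. Their difference between the dex effects at 36 and 2 h spanned -1.94 to -0.24, and again 1 of the 4 passed. The Tpm1 probes gave -1.87 and -1.32, and the Ccn1 probes 0.42 and 1.29. All 32 Actb probes lay below 0, between -0.82 and -0.23, and 24 passed. Of the 57 Tln1 probes 1 passed, at 0.49, and the rest lay from -0.28 upward on both sides of 0.

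Some genes that did not pass as a mean held a probe that did. The first of 7 Tpm3 probes gave -0.64, -0.51, -0.78 and -0.08 with dex at 36 h, against 0.46, 0.46, 0.36 and 0.33 with DMSO. Its difference was -0.90, and -0.68 at 2 h, while the other 6 probes lay between -0.23 and 0.04 at 36 h and none passed. Such single probes that fell at 36 h were also seen for Cald1 (2 of 5), Cnn3 (1 of 2, at -0.51), Pdlim7 (1 of 2, at -0.53) and Myl9 (1 of 2, at -0.25). In Myh10, 2 of 3 probes fell. Which transcript forms the probes read was not tested.

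**Figure D4:**
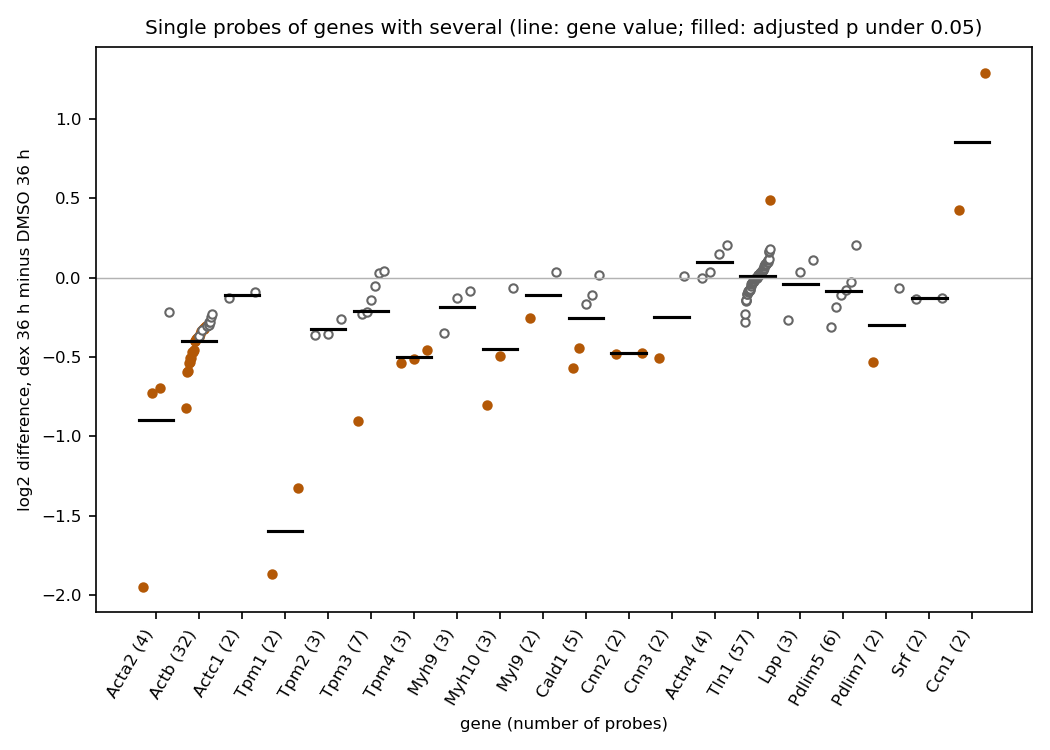
Log2 difference of dex 36 h over DMSO 36 h for each probe (points, filled for an adjusted p under 0.05) of the 20 genes with several probes, with the gene's mean as a line. Every Actb probe lies below 0, the Acta2 probes spread between -1.95 and -0.22, and 1 Tpm3 probe at -0.90 stands apart from the other 6.

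Related pathway and cytoskeleton genes were taken from 4 further lists. The share of all genes called in a direction is given beside each count. Of 21 YAP and TEAD pathway genes, 2 rose (against 5.28% of all genes) and 4 fell (against 3.88% of all genes) at 36 h, with a median of -0.01. Tead4 rose by 1.68 ± 0.14 at 36 h, with 0.87 and 2.49 for its 2 probes, and by 1.51 ± 0.14 at 2 h. The Hippo scaffold Sav1 was higher with dex by 1.30 ± 0.17 at 36 h. From 2 to 36 h Sav1 changed by -0.82 ± 0.17 in DMSO and by 0.18 ± 0.17 under dex (limma adjusted p = 0.0289 and 0.707). Amot, a YAP-binding protein, and Tead2 fell by 0.50 ± 0.06 and 0.42 ± 0.07. Ajuba, a LIM protein, fell at 2 h (-0.69 ± 0.11) and was at -0.01 ± 0.11 at 36 h. The coactivators Yap1 and Wwtr1 (TAZ) did not pass, at -0.00 ± 0.09 and -0.07 ± 0.08.

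Of 41 other actin-binding and turnover genes, 7 rose (against 5.28% of all genes) and 2 fell (against 3.88% of all genes) at 36 h, with a median of 0.01. Gsn, the filament-severing protein gelsolin, rose by 0.86 ± 0.07 over 22 probes, which spanned -0.41 to 1.16. The capping protein Capg rose by 0.70 ± 0.11. Wasf2 (WAVE2), which activates branched nucleation, rose by 0.64 ± 0.09 at 36 h and 0.44 ± 0.09 at 2 h, and Coro1c, a coronin, by 0.60 ± 0.09. Fscn1, the bundling protein fascin, fell at 2 h (-0.34 ± 0.06). Of 25 other myosin, tropomyosin-associated and smooth muscle genes, 1 fell at 36 h (Synm, synemin, -0.24 ± 0.07, against 3.88% of all genes), with a median of -0.02. Myo10, an unconventional myosin of filopodia, was at 0.15 ± 0.06 at 36 h (limma adjusted p = 0.166) and fell at 2 h (-0.39 ± 0.06).

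Of 30 other focal adhesion and LIM genes, 5 rose (against 5.28% of all genes) and 1 fell (against 3.88% of all genes) at 36 h, with a median of 0.08. Ptk2b, the kinase PYK2, rose by 1.63 ± 0.19. From 2 to 36 h Ptk2b changed by -0.74 ± 0.19 in DMSO and by 0.28 ± 0.19 under dex, and neither passed (limma adjusted p = 0.0914 and 0.578). Lims2 (PINCH2) rose by 0.98 ± 0.10 at 36 h and 0.47 ± 0.10 at 2 h, and Tns1 (tensin 1) by 0.72 ± 0.10 and 0.42 ± 0.10. The 4 Tns1 probes spanned -0.46 to 1.16 at 36 h. Itga5, the fibronectin receptor subunit, rose by 0.37 ± 0.08, and the paxillin relative Tgfb1i1 was at -0.06 ± 0.10. At 2 h, 2 genes of this list rose, against 1.77% of all genes, and 1 fell, against 1.20%. The 4 medians at 36 h, from -0.02 to 0.08, stood beside -0.19 for the 37 contractile genes and -0.0012 for all genes. Because the 37 genes and the lists were chosen with earlier results of these data known, this contrast is a description only.

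**Figure D5:**
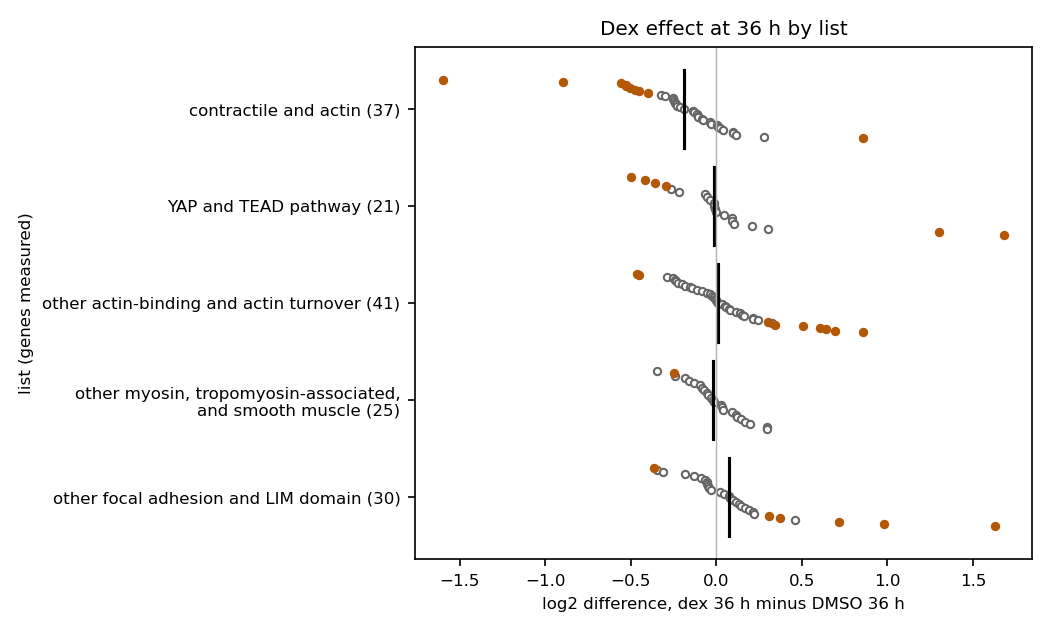
Log2 difference of dex 36 h over DMSO 36 h for each gene (points, filled for an adjusted p under 0.05) of the 37 contractile and actin genes (top) and the 4 further lists, with the median of each as a line. The contractile genes have their median at -0.19, and the medians of the other lists lie between -0.02 and 0.08.

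Markers of cell state moved beside these genes. Of 10 preadipocyte and fibroblast markers 6 fell at 36 h, against 3.88% of all genes (median -0.38, range -0.76 to -0.03), with Dlk1, Pdgfrb, Col1a1, Col1a2, Col3a1 and Fn1 passing and Vim at -0.09 ± 0.07. At 2 h 1 of the 10 fell (Pdgfrb, -0.74), against 1.20% of all genes. Of 6 measured adipocyte markers, Fabp4 rose, by 2.59 ± 0.31 at 36 h and 1.60 at 2 h, and the other 5 did not pass at either time. Of all genes 5.28% rose at 36 h and 1.77% at 2 h. Of the 7 skeletal muscle, 3 cardiac, 4 endothelial and 4 macrophage markers measured, 0 passed in limma at 36 h, and 2 had an unadjusted p under 0.05, against 21.5% of all genes. Ratios to a pool give no level, so whether any marker is at or near 0 cannot be read from these arrays. The part of these marker changes in the differences of the contractile genes was not tested.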

How the data were processed

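Total RNA of 3T3-L1 cells was measured on 16 2-colour arrays, with the sample in Cy5 and the pool in Cy3, per the labels. The deposited values are taken as log2 ratios, sample over pool for each probe and array. The authors fitted limma models, per the submitters' processing notes. The sources used here state no background correction, normalization or log base. Base 2 was checked on the values: the median arithmetic mean ratio of the 38 most variable probes was 1.00 with log2, 3.05 with log10 and 1.16 with the natural log, and over 385 probes it was 0.976 (log2) and 1.01 (natural log), over 3847 probes 1.01 (log2) and 1.04 (natural log), which leaves those 2 undecided. No further normalization was applied, and 131 values were missing on 3 arrays.

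Of 38467 probes 29456 name 1 gene, 760 several and 8251 none in the platform annotation. Symbols were updated by Entrez identifier through a RefSeq table (28735 probes, 721 kept the platform symbol). Probes naming 1 gene were averaged into 19640 genes. limma 3.58.1 in R 4.3.3 fitted 4 group means over 16 arrays with lmFit and eBayes (12 residual and 3.11 prior degrees of freedom), without covariates, after tests on simulated data. Replicates are labelled biological. Samples were grouped by source label. In deviations from group means, same-numbered arrays of different groups correlated at a median of -0.0031 (5 of 24 pairs over 0.1, against 6 of 72 pairs with other numbers). Dex and DMSO replicates 1 to 4 of the same time correlated at -0.10, 0.19, 0.04 and 0.26 at 2 h. At 36 h they correlated at -0.02, 0.34, 0.22 and -0.08. Such pairs with other numbers ranged from -0.27 to 0.23 at 2 h and from -0.31 to 0.15 at 36 h. Whether numbers pair arrays was not settled, and the main fit did not pair them. The members and gene lists were chosen with earlier results of these data known. All members are named, and up to 4 genes per list with the largest 36 h effect among those that passed, up to 2 for 2 h, and 3 fixed genes; 1 further list is not reported here, and cell type markers were named after their values were seen. Alternatives changed the probe summary, normalization, weights, arrays, prior, threshold, filter, block and left out each array.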

Additional observations from a re-analysis of the deposited data

Results flagged for a closer look

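In 9 of 148 sets of 4 replicates (37 genes by 4 groups) 1 array stood apart, its gap to the nearest array divided by the range exceeding Dixon's critical value, which chance alone exceeds in about 5% of sets. At 36 h these were dex replicate 4 of Tpm1 (0.908), at -0.77 beside -1.12 to -1.09, dex replicate 2 of Pdlim7 (0.922), at -0.40 beside -0.04 to -0.01, and DMSO replicate 3 of Acta2 (0.844), at 0.63 beside 0.44 to 0.47. At 2 h with dex they were replicate 2 of Tagln2 (0.885), at 0.06 beside -0.25 to -0.21, and replicate 3 of Pdlim5 (0.902), at -0.31 beside -0.21 to -0.20. At 2 h with DMSO they were replicate 4 of Tpm1 (0.971), at -0.27 beside 0.08 to 0.10, and of Actn1 (0.883), at 1.37 beside -0.12 to 0.06. The last 2 were DMSO 2 h replicate 1 of Tpm4 (0.840), at 0.14 beside -0.15 to -0.11, and of Actn4 (0.868), at -0.15 beside -0.01 to 0.01.

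The dex effect at 36 h minus that at 2 h passed the limma test of the difference for Tpm1 (-1.46), Acta2 (-0.87), Flna (-0.53) and Actb (-0.40).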

How the results depend on the processing

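Over 28 alternatives, 2005 of 2072 effects of single genes at 36 and 2 h kept their side of the threshold, 56 passed newly, 11 no longer passed and 0 that passed reversed. The sign changed in 46, which passed neither way. The 10 genes of dex against DMSO at 36 h all passed as well among the 16 with at least 1 probe passing, the 16 by the probe with the smallest F test p, the 17 after quantile normalization (16 lower, while 17.6% of all genes passed, against 9.16% in the main setting), the 22 with array weights (20 lower, while 32.8% of all genes passed) and the 16 with only the 36 h arrays. Myh10 was lost from the 10 with the median of probes and by log-odds over 0. In the settings by at least 1 probe or by the smallest F test p, the probe was picked by the comparisons tested. No correction was made for picking among a gene's probes, so these counts are not separate support. Where a count here has no share of all genes beside it, its change from the main setting cannot be read as particular to these genes. Of dex against DMSO at 2 h, 1 remained with only the 2 h arrays. For the difference between the dex effects at 36 and 2 h, 8 passed with array weights and 2 by log-odds over 0. With array weights 6.60% of all genes passed there, against 2.90% in the main setting. For DMSO 36 h against DMSO 2 h, 1 passed with the median of probes, 7 after quantile normalization and 7 with array weights. Of all genes 2.95% passed after quantile normalization and 2.49% with array weights, against 1.12% in the main setting. With only the DMSO arrays 0 of the members passed (10 at an unadjusted p under 0.05). For dex 36 h against dex 2 h, 12 passed with array weights, while 10.8% of all genes passed, against 1.88% in the main setting. Leaving out 1 array at a time gave 10 to 13, 4 to 6, 2 to 6, 0 to 4 and 1 to 4 genes for these 5 comparisons. Over all genes, the share of calls that were higher in DMSO 36 h against DMSO 2 h was 20.0% in the main setting, 38.7% after quantile normalization and 33.1% with array weights. The replicate block, a pairing by number that the correlations did not settle, gave 10, 5, 3, 2 and 3 genes. Flna was lost from the difference between the effects and Actb from the vehicle over time. Leaving out probes with mCA, mCP and mCT identifiers, chosen after seeing the data, gave 10, 5, 3, 2 and 3, and the difference between the effects of Actb was no longer called. Where a call changed, the cause was not tested. The 1 variance per gene tends to understate the error at 2 h, and signal over background is unknown.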
